A study of Homo sapiens with 6 samples.

Results

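Cytosolic ribosomal protein genes encode the proteins that, with ribosomal RNA, build the small (40S) and large (60S) subunits of the ribosome, the particle that translates mRNA in the cytosol. They were chosen here by gene symbol: RPL or RPS with a number and, where present, an ending in A, L, AL or X, the stalk genes RPLP0, RPLP1 and RPLP2, and RPSA, whereas symbols of pseudogenes were left out. The rule found 82 of the 60748 genes in the deposited table, 32 for the 40S subunit and 50 for the 60S subunit, and 80 of the 82 passed the filter on low counts and were tested.

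RNA was sequenced from LX-2 cells, an established human hepatic stellate cell line. Of 6 libraries, 3 came from LX-2FAP cells, made to overexpress fibroblast activation protein α (FAPα, a cell-surface serine protease) from an integrated lentivirus whose vector carries a ubiquitin promoter, EGFP and puromycin resistance. The other 3 came from LX-2Vector cells, infected with the same vector without the FAPα sequence, and all were cultured for 24 h. The study describes stable clones picked under puromycin, and nothing in the sources used here says that the 3 libraries of a group came from separate clones or cultures, so p-values measure only the spread between these libraries.

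Ribosomal protein mRNAs are among the most abundant mRNAs of a growing cell, and most of their products are needed in equal numbers for each ribosome. Most of these mRNAs begin with a 5′ terminal oligopyrimidine (TOP) tract, a C followed by a run of C and T (U in the RNA), through which mTORC1 and the RNA-binding protein LARP1 control how strongly they are translated. Ribosomal proteins that are not built into ribosomes, RPL5 and RPL11 in particular, can bind the ubiquitin ligase MDM2.

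The overexpressed gene was examined first. FAP was measured at 1.86, 2.39 and 2.59 CPM (counts scaled to a common library size, here by TMM) in LX-2Vector 1 to 3 and at 620.1, 842.8 and 706.7 CPM in LX-2FAP 1 to 3, so the libraries carried the labels' difference. Total counts ran from 17355700 to 26352060 per library. Among 9 stellate markers VIM and COL1A1 were abundant, while DES had at most 1 count per library and LRAT had 0 counts in each of them. Summed, the markers ran from 1863.3 to 1968.3 CPM across the vector libraries and from 1928.6 to 2046.3 across the FAPα libraries. VIM made up most of this sum, with group means of 1545 and 1695 CPM, so the sum mainly follows VIM. ACTA2 was low, with means of 3.82 and 2.94 CPM (log2 change of -0.36, adjusted p by edgeR = 0.145), and did not pass. COL1A2 had means of 1.2 and 1.1 CPM and did not pass either. Fitted changes lay above 0 for 4 tested rows and below 0 for 4. Of the 8 tested rows of stellate markers edgeR called 3, COL1A1 and PDGFRB lower (log2 changes of -0.40 and -0.38, adjusted p = 0.0135 and 0.0269) and VIM higher (log2 change of 0.13, adjusted p = 0.0372), and none of them was called without LX-2Vector 1, LX-2FAP 2 or LX-2FAP 3. Of the 4 hepatocyte markers none passed the filter, and their summed level was at most 0.5 CPM. The summed endothelial markers were at 6.95 to 8.75 CPM in the vector libraries and 5.23 to 6.83 CPM in the FAPα libraries, the 4 macrophage markers at 7.95 to 10.1 and 7.84 to 9.55 CPM, and the 4 cholangiocyte markers at 64.4 to 69.2 and 64.1 to 72.6 CPM. SOX9 made up most of the cholangiocyte sum, at 60.2 and 64.1 CPM on average in the vector and FAPα libraries. KRT7 was at 4.95 and 4.04 CPM, KRT19 at 0.71 and 0.72 CPM and EPCAM at 0.22 and 0.13 CPM. The endothelial marker VWF was called lower by edgeR, at 2.46 CPM in the vector libraries and 1.17 CPM in the FAPα libraries on average (log2 change of -1.06, adjusted p = 0.0268), and not by DESeq2, nor by edgeR without LX-2Vector 1, LX-2Vector 3, LX-2FAP 2 or LX-2FAP 3. STAB2 and PECAM1 had log2 changes of -0.84 and 0.05 and did not pass. The part of the cells these markers stand for in the results was not tested.

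The start of transcription was looked at next, because the TOP tract is the feature that ribosomal protein mRNAs share and that the rule did not use. RefSeq (GRCh38.p14) gave a start window for 65 members, and a tract, searched as a C followed by at least 4 letters that are each C or T on the gene's own strand, began exactly at the RefSeq start in 42 of them (64.6%), against 4.0% of all 27305 start windows. Within 5 bases of the start it was found in 51 members (78.5%), against 21.1% of all windows. The TATA box motif TATAAA, searched on the gene's strand upstream of the start, was found in 3 members (4.6%), against 2.5% of all windows.

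The windows printed here run from 30 bases before the RefSeq start to 20 bases from it, with the tract in capitals. RPLP0, RPS12, RPS18 and RPL41 are shown because they were among the 5 members with the highest FPKM, and each of them holds a tract at the start.
RPLP0, chr12:120201092-120201141, minus strand: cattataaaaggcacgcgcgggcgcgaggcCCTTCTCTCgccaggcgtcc
RPS12, chr6:132814539-132814588, plus strand: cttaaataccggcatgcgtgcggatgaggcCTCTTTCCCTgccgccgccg
RPS18, chr6:33272045-33272094, plus strand: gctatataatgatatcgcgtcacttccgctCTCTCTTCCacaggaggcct
RPL41, chr12:56116603-56116652, plus strand: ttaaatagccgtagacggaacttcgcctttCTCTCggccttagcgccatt
The next 5 members were called higher by DESeq2 and not by edgeR, the main test. Each of these windows also holds a tract.
RPL24, chr3:101686699-101686748, minus strand: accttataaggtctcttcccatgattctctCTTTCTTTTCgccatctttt
RPS6, chr9:19380217-19380266, minus strand: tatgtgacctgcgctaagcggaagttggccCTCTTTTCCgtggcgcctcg
RPSA, chr3:39406690-39406739, plus strand: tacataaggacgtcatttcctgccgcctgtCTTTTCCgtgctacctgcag
RPL14, chr3:40457309-40457358, plus strand: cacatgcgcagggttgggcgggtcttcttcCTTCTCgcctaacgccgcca
RPL4, chr15:66504836-66504885, minus strand: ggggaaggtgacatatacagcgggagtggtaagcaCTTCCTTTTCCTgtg
RPL9 and RPL6 were called higher by the main test, and their RefSeq windows hold no tract within 5 bases of the start. The RPL9 window does hold a run of the searched form, ctttcttt, downstream of the start and past that limit. The RefSeq start used for RPL6 lies inside the gene as GENCODE draws it, downstream of its 5′ end.
RPL9, chr4:39458903-39458952, minus strand: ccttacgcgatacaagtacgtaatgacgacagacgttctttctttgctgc
RPL6, chr12:112411423-112411472, minus strand: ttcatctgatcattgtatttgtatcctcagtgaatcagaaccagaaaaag
RPS28 and RPL28 had the most negative fitted changes. Both windows hold a tract.
RPS28, chr19:8321466-8321515, plus strand: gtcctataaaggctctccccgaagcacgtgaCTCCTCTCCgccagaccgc
RPL28, chr19:55385902-55385951, plus strand: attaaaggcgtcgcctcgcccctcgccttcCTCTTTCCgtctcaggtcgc
RPS27 and RPS27L, which encode closely related proteins, differ in these letters. A tract opens the former, and none was found within 5 bases of the start of the latter.
RPS27, chr1:153990732-153990781, plus strand: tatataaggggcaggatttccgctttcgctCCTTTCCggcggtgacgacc
RPS27L, chr15:63157458-63157507, minus strand: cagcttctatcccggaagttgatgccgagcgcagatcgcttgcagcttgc
A RefSeq start is an annotation, and where transcription began in LX-2 was not measured. Over the tested members with a window, the median log2 fold change was 0.07 for the 51 with a tract near the start and 0.09 for the 13 without, and 44 and 11 of them, respectively, lay above 0. The 13 include members with such a run further downstream, among them RPL9, RPL27 and RPS27A. The split thus depends on the search limit and does not separate mRNAs with a TOP tract from those without.

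The level of each member was described first. Together the 82 genes took 2.32%, 2.26% and 2.20% of the counts in LX-2Vector 1 to 3 and 2.29%, 2.35% and 2.33% in LX-2FAP 1 to 3. The share was 2.26% ± 0.0626 in LX-2Vector and 2.32% ± 0.0299 in LX-2FAP (SD, n = 3 each). In RNA from whole cultures, fewer cells of a type and less RNA per cell cannot be told apart. The groups overlapped, because LX-2Vector 1 lay between the lowest and the middle LX-2FAP library, and a 2-sided exact permutation test of 3 against 3 libraries could not have given a p below 0.1. As TPM, computed by scaling the deposited FPKM of each library to the same total, the sum was 32853 ± 623.7 in LX-2Vector and 33840 ± 398.8 in LX-2FAP (SD, n = 3 each).

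**Figure D1:**
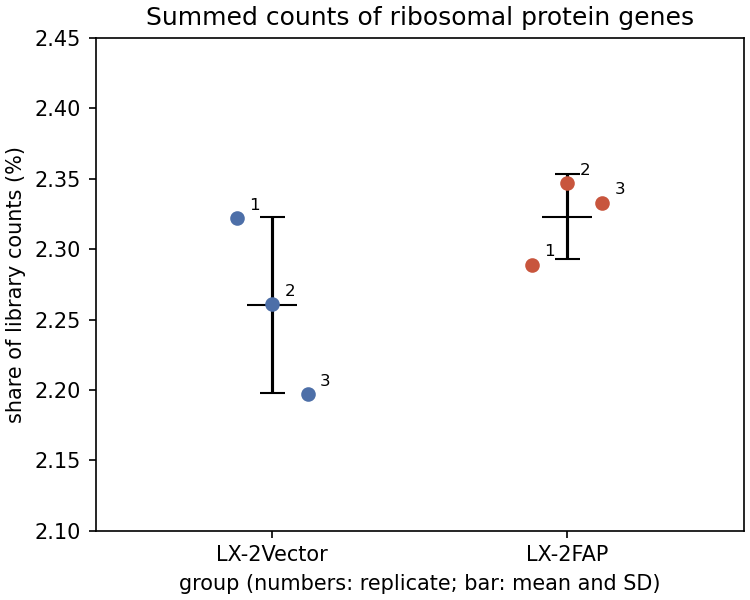
Share of all library counts taken by the 82 ribosomal protein genes (vertical axis, percent, not starting at 0) for 3 LX-2Vector and 3 LX-2FAP libraries, with replicate numbers, mean and SD. LX-2Vector 1, at 2.32%, lies within the LX-2FAP libraries, and LX-2Vector 3, at 2.20%, is the lowest of the 6.

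The 60S genes had 1.87 ± 0.0153 times the counts of the 40S genes in LX-2Vector and 1.89 ± 0.0176 times in LX-2FAP (SD, n = 3 each), a difference within the spread between libraries. RPLP0, the stalk protein that anchors RPLP1 and RPLP2 at the factor-binding site of the 60S subunit, held the largest part, 4.77% of the members' counts. It was followed by RPSA, RPS3, RPL10 and RPL3, at 3.48%, 3.24%, 3.23% and 3.02%.

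Per length, as deposited FPKM, the members spread over more than 2 orders of magnitude in LX-2Vector. The highest were RPLP0 at 270.8 ± 11.9, RPS12 at 265.9 ± 9.42, RPS2 at 255.4 ± 22.6, RPS18 at 241.0 ± 8.28 and RPL41 at 239.9 ± 8.14 FPKM (SD, n = 3), and neighbors in this order lay within their spread. RPS2 forms the mRNA entry region of the 40S subunit and RPL41 is the smallest protein of the 60S subunit. The median over the 80 tested members was 78.7 FPKM.

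The low end of this order held a group with a shared annotation. RPS10 was measured at 1.18 ± 0.176, RPL36A at 1.43 ± 0.00661, RPL17 at 4.21 ± 0.339 and RPL26 at 4.89 ± 0.388 FPKM in LX-2Vector (SD, n = 3), and these 4 were among the 5 lowest of the tested members. In the GENCODE release 29 annotation (GRCh38), most of the coding bases of each lie within a second gene on the same strand. That share was 92.1% for RPS10 (within RPS10-NUDT3), 94.3% for RPL36A (RPL36A-HNRNPH2), 100% for RPL17 (RPL17-C18orf32) and 71.0% for RPL26 (AC135178.2).

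RPL22 (59.9%, AL031847.2) and RPS15A (54.6%, AC138811.2) also had over 50% of coding bases shared in this way, at 19.2 ± 0.795 and 8.42 ± 0.649 FPKM (SD, n = 3). In all, the 7 tested members over that limit ran from 1.18 to 19.2 FPKM, and the 73 others from 5.61 to 270.8 FPKM with a median of 92.8. The overlapping genes themselves had at most 6 counts in any library. How the counting treated a read that lies in 2 genes is not given in the sources used here, and its part in these levels was not tested. The median log2 fold change between the groups was 0.08 for these 7 and 0.07 for the 73 others.

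**Figure D2:**
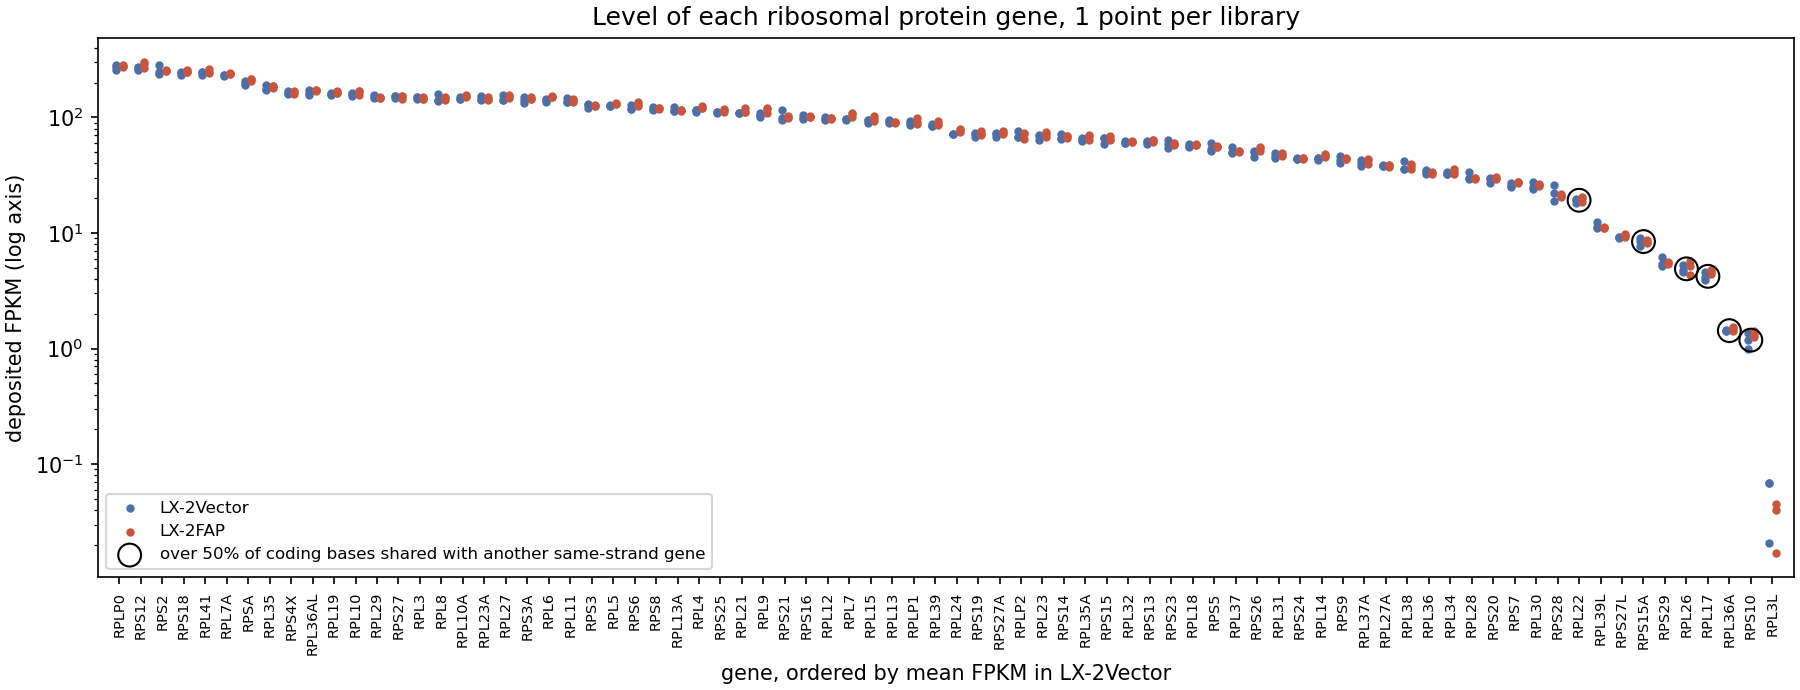
Deposited FPKM (vertical log axis) of the members with a count, other than 3 not reported here, ordered by their mean in LX-2Vector, with 1 point per library and a ring around the tested members that share over 50% of their coding bases with another gene on the same strand. The rings lie at the low end, between 1.18 and 19.2 FPKM, and the 2 groups of points overlap closely for each gene.

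The gene length behind the deposited FPKM was close to that of all annotated exons together for many members, such as 8040 against 8153 bases for RPL37. For others it was not, with 3591 against 1761 bases for RPL19 and 3866 against 6172 bases for RPL13. The order depends on that length. Per kilobase of coding sequence, RPL41 led with 3517 CPM, followed by RPL37 with 1412, RPL39 with 1182, RPLP0 with 1127 and RPL10 with 1125 CPM per kilobase in LX-2Vector. RPL41, RPL37 and RPL39 have coding sequences of 75, 291 and 153 bases. RPL37 was the member whose place moved most among these, from 54 of 82 by deposited FPKM to 2 by coding length.

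The paralogs that carry an ending in L differed widely in level. RPL10L, a retrogene known for its expression in testis, had 0 counts in every library, which allows up to 3 counts in a library, whereas RPL10 was measured at 158.1 ± 4.78 FPKM in LX-2Vector (SD, n = 3). RPL3L, known from heart and skeletal muscle, had 5, 1 and 4 counts in LX-2Vector 1 to 3 and 3, 2 and 1 counts in LX-2FAP 1 to 3, and it was not tested. RPL3 was measured at 148.2 ± 2.86 FPKM in LX-2Vector and 145.2 ± 2.99 FPKM in LX-2FAP (SD, n = 3 each).

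RPL39L, also best known from testis, was detected at 11.5 ± 0.72 FPKM in LX-2Vector and 11.1 ± 0.132 FPKM in LX-2FAP, against 85.6 ± 1.46 and 89.4 ± 2.87 FPKM for RPL39 (SD, n = 3 each). RPS27L was measured at 9.15 ± 0.116 FPKM in LX-2Vector, and RPS27 at 151.2 ± 3.2 (SD, n = 3). RPL36AL had the opposite order to its namesake, with 163.1 ± 8.16 FPKM against 1.43 ± 0.00661 FPKM for RPL36A (SD, n = 3), of which RPL36A is 1 of the 7 overlapped members named above.

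The comparison of LX-2FAP with LX-2Vector asked whether overexpression of FAPα went with a change in these mRNAs. The fitted changes were small and mostly upward: 68 of 80 members had a log2 fold change above 0, against 47.0% of all tested genes, and the median was 0.072 for the members, a fold of 1.05, and -0.013 for all tested genes. Among the 9463 other tested genes of the same range of level, 56.1% lay above 0 and the median was 0.018. The members' log2 fold changes ran from -0.07 to 0.19, and 73 of the 80 had a fold between 0.9 and 1.1.

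By the edgeR quasi-likelihood test at an adjusted p under 0.05, RPL9, RPL6 and RPL7 were called higher, 3.75% of the 80, and no member was called lower. Of all 18275 genes 5.29% were called, 2.57% higher and 2.73% lower, so the share of members called was near that of genes as a whole. It was below that of the 9463 other genes of the same range of level, of which 8.27% were called and 4.58% called higher. At an unadjusted p under 0.05, 24 of the 80 members were higher and 0 lower, against 10.5% and 11.6% of all genes, and 17.6% higher among other genes of the same range of level. The 3 LX-2FAP libraries all lay above the 3 LX-2Vector libraries for 23 members (28.8%), against 13.0% of all genes, and 0 members had them all below, against 13.4%. DESeq2 called 8 members higher and 0 lower, against 3.36% of all genes called higher, and limma-trend on log2(FPKM + 1) called 0 of them in either direction and 2 of all genes, with 9 members higher and 0 lower at an unadjusted p under 0.05. Scaled by library size alone in place of TMM, edgeR called 0 members, 57 lay above 0, 10 were higher and 0 lower at an unadjusted p under 0.05, the median was 0.043, and of 1048 genes called in all 239 were higher.

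**Figure D3:**
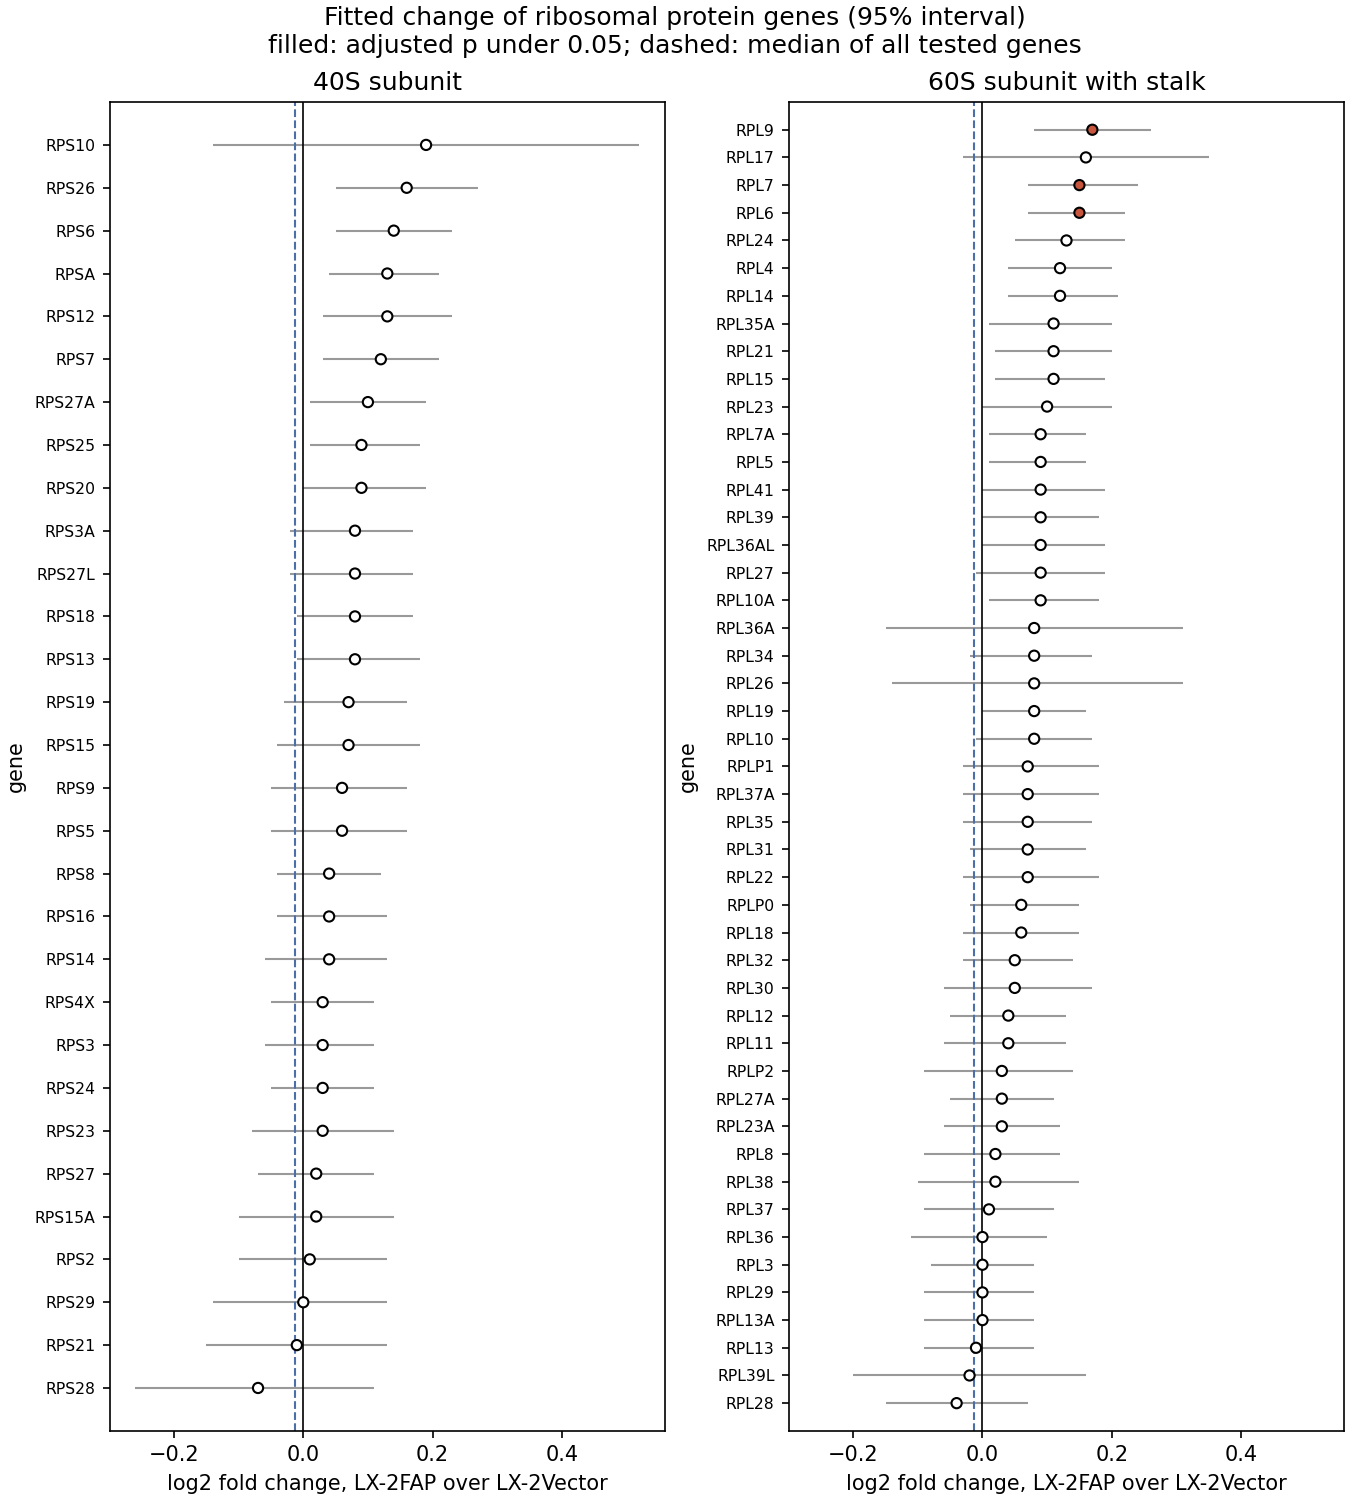
Log2 fold change of LX-2FAP over LX-2Vector (horizontal axis) with its 95% interval for the tested members, other than 3 not reported here, split by subunit and ordered by size, with filled points for an adjusted p under 0.05 and a dashed line at the median of all tested genes (-0.013). RPL9, RPL7 and RPL6 are filled, and most other points lie to the right of 0 with intervals that reach it.

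RPL9 (ENSG00000163682, GRCh38 chromosome 4, 39452521 to 39458949), a 60S protein near the base of the stalk, was measured at 497.8, 527.6 and 513.1 CPM in LX-2Vector 1 to 3 and at 546.2, 588.1 and 598.0 CPM in LX-2FAP 1 to 3. The groups did not overlap, and the lowest LX-2FAP library was LX-2FAP 1. It rose to 577.4 ± 27.5 CPM in LX-2FAP, compared with 512.8 ± 14.9 CPM for LX-2Vector (mean ± SD, n = 3 each), and the fitted log2 change was 0.17 (SE 0.04, adjusted p by the edgeR quasi-likelihood test = 0.0306).

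RPL6 (ENSG00000089009, GRCh38 chromosome 12, 112405190 to 112418838), a 60S protein, was measured at 625.4, 630.0 and 593.3 CPM in LX-2Vector 1 to 3 and at 675.8, 687.3 and 681.5 CPM in LX-2FAP 1 to 3. The LX-2FAP libraries lay closer together than the LX-2Vector libraries. It rose to 681.5 ± 5.73 CPM in LX-2FAP, compared with 616.2 ± 20 CPM for LX-2Vector (mean ± SD, n = 3 each), and the fitted log2 change was 0.15 (SE 0.04, adjusted p by the edgeR quasi-likelihood test = 0.0355).

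RPL7 (ENSG00000147604), a 60S protein, was measured at 262.6, 253.7 and 257.8 CPM in LX-2Vector 1 to 3 and at 275.4, 290.3 and 296.0 CPM in LX-2FAP 1 to 3. Again the groups did not overlap and LX-2FAP 1 was the lowest of its group. It rose to 287.2 ± 10.6 CPM in LX-2FAP, compared with 258.0 ± 4.44 CPM for LX-2Vector (mean ± SD, n = 3 each), and the fitted log2 change was 0.15 (SE 0.04, adjusted p by the edgeR quasi-likelihood test = 0.0394).

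Each of these calls depended on single libraries. RPL9 was not called without LX-2Vector 1, LX-2Vector 3, LX-2FAP 2 or LX-2FAP 3 (edgeR adjusted p 0.0798, 0.066, 0.13 and 0.204), RPL6 not without LX-2Vector 3, LX-2FAP 2 or LX-2FAP 3 (0.125, 0.137 and 0.177), and of the fits that leave out 1 library RPL7 was called without LX-2FAP 1 alone. The log2 fold changes themselves stayed between 0.14 and 0.22 for RPL9, 0.12 and 0.19 for RPL6, and 0.12 and 0.20 for RPL7 over all 18 fits. Of the words of 100 bases in their coding transcripts, 93.5% for RPL7, 79.0% for RPL9 and 63.7% for RPL6 also occur in an annotated pseudogene, so reads of these genes can be shared with copies, and how such reads were counted is not given in the sources used here.

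RPL24, RPL4, RPL14, RPS6 and RPSA were called by DESeq2 but not by edgeR. RPL24, a 60S protein that bridges to the 40S subunit, was measured at 187.1, 186.0 and 186.1 CPM in LX-2Vector 1 to 3 and at 197.3, 208.5 and 208.0 CPM in LX-2FAP 1 to 3, a log2 change of 0.13 (SE 0.04, adjusted p by edgeR = 0.0607, DESeq2 adjusted p = 0.0364). Its LX-2Vector libraries were nearly identical and all LX-2FAP libraries lay above them. RPS6, the 40S protein phosphorylated by S6 kinase, was measured at 319.9, 338.4 and 316.9 CPM and at 358.1, 369.5 and 345.6 CPM, a log2 change of 0.14 (SE 0.04, adjusted p by edgeR = 0.0618, DESeq2 adjusted p = 0.0309). RPS6 shared none of its words of 100 bases with a pseudogene.

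RPSA, the 40S protein that is also known as the laminin receptor precursor, was measured at 771.5, 792.3 and 733.5 CPM in LX-2Vector 1 to 3 and at 808.9, 857.2 and 843.1 CPM in LX-2FAP 1 to 3 (log2 change of 0.13, SE 0.04, adjusted p by edgeR = 0.0717, DESeq2 adjusted p = 0.0369). RPL4 was measured at 621.3, 646.7 and 640.3 CPM and at 682.7, 708.2 and 681.5 CPM (log2 fold change 0.12, edgeR adjusted p = 0.0689). For RPL14 the values were 380.0, 365.2 and 380.1 CPM and 397.0, 418.0 and 411.1 CPM (log2 fold change 0.12, edgeR adjusted p = 0.0717). For all 3 genes the groups did not overlap.

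By subunit the fitted changes were alike in their summary. For the 40S subunit 28 of 32 tested genes lay above 0 with a median log2 fold change of 0.064, and edgeR called 0 of them, with 8 higher and 0 lower at an unadjusted p under 0.05, 2 called by DESeq2 and 0 by limma-trend. For the 60S subunit without the stalk 37 of 45 lay above 0 with a median of 0.075, and edgeR called 3, all higher. Of these 45, 16 were higher and 0 lower at an unadjusted p under 0.05, with 6 called by DESeq2 and 0 by limma-trend. Of all tested genes edgeR called 2.57% higher and DESeq2 3.36%, and 10.5% were higher at an unadjusted edgeR p under 0.05. The stalk genes RPLP0, RPLP1 and RPLP2 had log2 fold changes of 0.06, 0.07 and 0.03 (SE 0.04, 0.05 and 0.06) and none was called by edgeR, DESeq2 or limma-trend, nor had an unadjusted edgeR p under 0.05.

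The most positive fitted changes were not the best measured ones. RPS10 had 82, 40 and 58 counts in LX-2Vector 1 to 3 and 79, 53 and 65 counts in LX-2FAP 1 to 3, and its log2 fold change of 0.19 had a 95% interval from -0.14 to 0.52 (edgeR adjusted p = 0.525). RPL17 had a log2 fold change of 0.16 with an interval from -0.03 to 0.35 (edgeR adjusted p = 0.331) on 195 to 261 counts. Both belong to the 7 overlapped members. RPS26, a 40S protein at the mRNA exit channel, was measured at 104.2, 101.8 and 92.8 CPM in LX-2Vector 1 to 3 and at 105.4, 114.7 and 113.1 CPM in LX-2FAP 1 to 3 (log2 change of 0.16, SE 0.05, adjusted p by edgeR = 0.0872), and all its words of 100 bases also occur in pseudogenes.

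At the other end, RPS28, a small 40S protein near the mRNA exit, was measured at 55.1, 46.4 and 39.4 CPM in LX-2Vector 1 to 3 and at 43.7, 46.4 and 44.5 CPM in LX-2FAP 1 to 3. The LX-2FAP libraries lay inside the range of the LX-2Vector libraries, and the log2 fold change was -0.07 with a 95% interval from -0.26 to 0.11 (edgeR adjusted p = 0.683). RPL28 was measured at 214.9, 184.0 and 188.3 CPM and at 190.2, 192.9 and 188.0 CPM, with LX-2Vector 1 alone standing high (log2 fold change -0.04, edgeR adjusted p = 0.692). RPL39L had a log2 fold change of -0.02 with an interval from -0.20 to 0.16, and no member had an interval that lay wholly below 0. The lowest bound of any member's interval was a fold of 0.835 and the highest was 1.43 for RPS10, or 1.28 without RPS10, so larger changes lay outside these intervals.

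Members with known roles outside the ribosome had small values as well. RPL5, which carries the 5S RNA and can bind MDM2, was measured at 466.0, 461.3 and 453.6 CPM in LX-2Vector 1 to 3 and at 486.5, 485.7 and 495.1 CPM in LX-2FAP 1 to 3 (log2 change of 0.09, SE 0.04, adjusted p by edgeR = 0.163). RPL11, its partner in the 5S particle, was measured at 392.3, 356.4 and 356.5 CPM and at 387.1, 365.2 and 380.4 CPM (log2 change of 0.04, SE 0.04, adjusted p by edgeR = 0.703). The groups did not overlap for RPL5 and overlapped for RPL11.

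RPL23, another MDM2 binder, had a log2 change of 0.10 (SE 0.05, adjusted p by edgeR = 0.211), and RPS27A, made as a fusion with ubiquitin, one of 0.10 (SE 0.04, edgeR adjusted p = 0.187). Neither passed the test. Of the pairs of paralogs, RPL39 and RPL39L had log2 fold changes of 0.09 and -0.02 (SE 0.04 and 0.08), RPS27 and RPS27L of 0.02 and 0.08 (SE 0.04 each), and RPL36A and RPL36AL of 0.08 and 0.09 (SE 0.11 and 0.05), and the difference within a pair was not tested.

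Library by library, the members moved together within groups as well as between them. The median deviation of the members from their LX-2Vector mean was 0.05, -0.007 and -0.047 (log2) in LX-2Vector 1 to 3 and 0.038, 0.081 and 0.085 in LX-2FAP 1 to 3. LX-2Vector 1 held the highest LX-2Vector value for 55 of the 80 members and LX-2Vector 3 the lowest for 48, while LX-2FAP 1 held the lowest LX-2FAP value for 51. LX-2Vector 1 lay above the LX-2FAP mean for 34 members, LX-2Vector 2 for 7 and LX-2Vector 3 for 5. The distance between LX-2Vector 1 and LX-2Vector 3 was thus about as large as that between the groups.

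**Figure D4:**
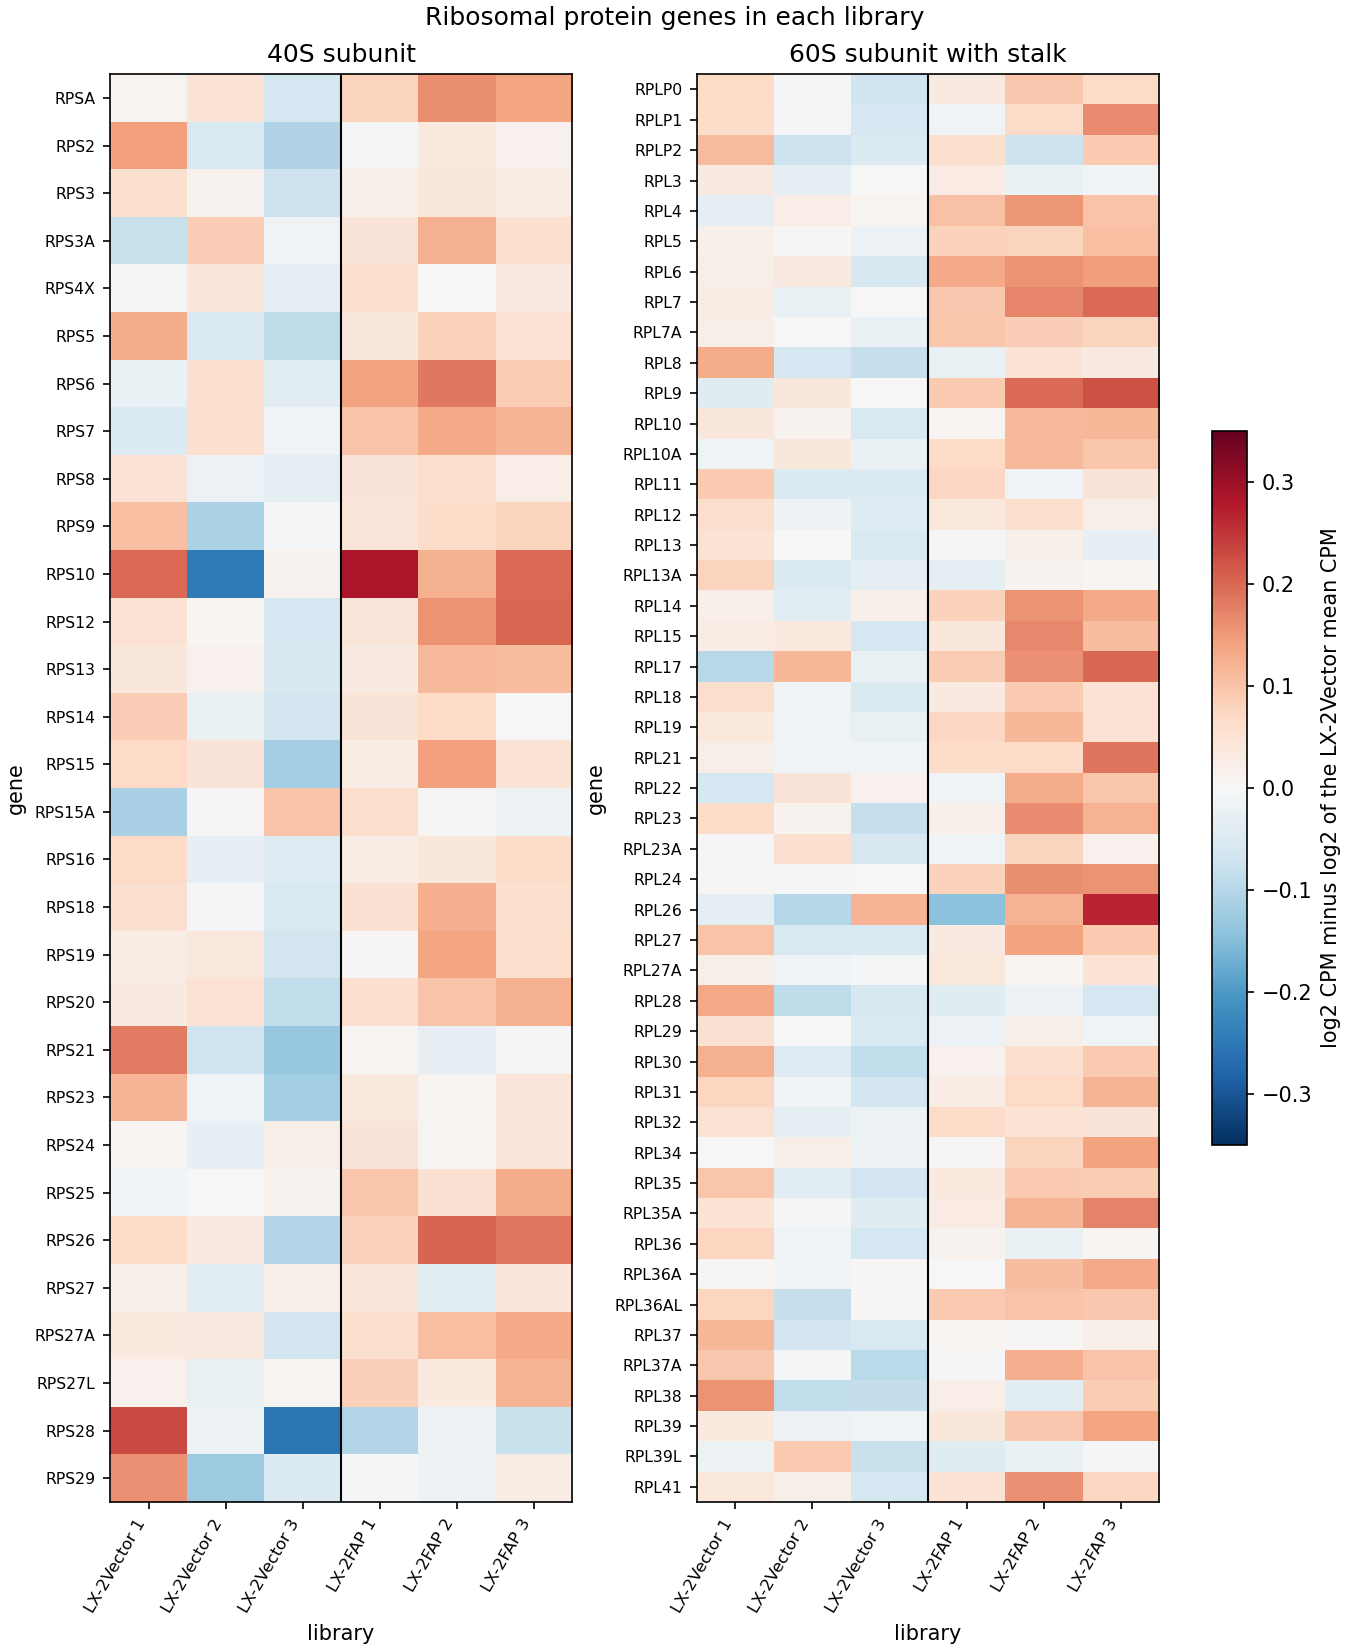
Log2 CPM of each tested member minus the log2 of its LX-2Vector mean (color), by library (columns) and gene (rows, other than 3 not reported here), for the 40S and the 60S subunit. LX-2Vector 1 is above 0 for most members and LX-2Vector 3 below, and LX-2FAP 2 and 3 are above 0 for most members.

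Base composition moved with the deviations of single libraries, taken here from each member's mean log2 CPM over all 6 libraries. Across the 80 members, the deviation of LX-2Vector 1 had a Spearman correlation of 0.62 with the G + C content of the coding sequence, that of LX-2FAP 3 one of -0.53, and the log2 fold change one of -0.47. These describe 80 genes that share their 6 libraries and carry no test. In the 20 members with the highest G + C (54.9% to 63.0%) the median log2 fold change was 0.021 and 12 lay above 0. None of these was called by edgeR in the main fit, by DESeq2 or by limma-trend, or was higher at an unadjusted edgeR p under 0.05. In the 20 with the lowest (42.1% to 46.7%) the median was 0.084, 19 lay above 0 and 2 were called by edgeR. Among all other tested genes the same order was seen, with a median of 0.068 in the lowest of 4 equal G + C classes and -0.107 in the highest. In these 2 classes edgeR called 7.46% and 7.06% of the genes in either direction. For those genes G + C was taken over the longest transcript in place of the coding sequence.

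With a smooth trend on G + C removed from each library, edgeR called 16 members higher and 0 lower, against 3.40% of all genes called higher, and with a trend on gene length removed it called 18 higher and 0 lower, against 7.31% of all genes. RPL9 and RPL6 were among both sets. RPL8, RPL18, RPL35, RPS9, RPS15 and RPS19, called with the G + C trend removed, lie among the 20 members with the highest G + C. RPL7 was called without the length trend and not without the G + C trend (log2 fold change 0.12, edgeR adjusted p = 0.0917). Without LX-2Vector 1, 78 of 80 members lay above 0, the median log2 fold change was 0.096 and 47 had an unadjusted edgeR p under 0.05, and RPL6 alone was called, in a fit that called 391 of all genes. The part of base composition in the fitted changes was not tested beyond these fits.

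**Figure D5:**
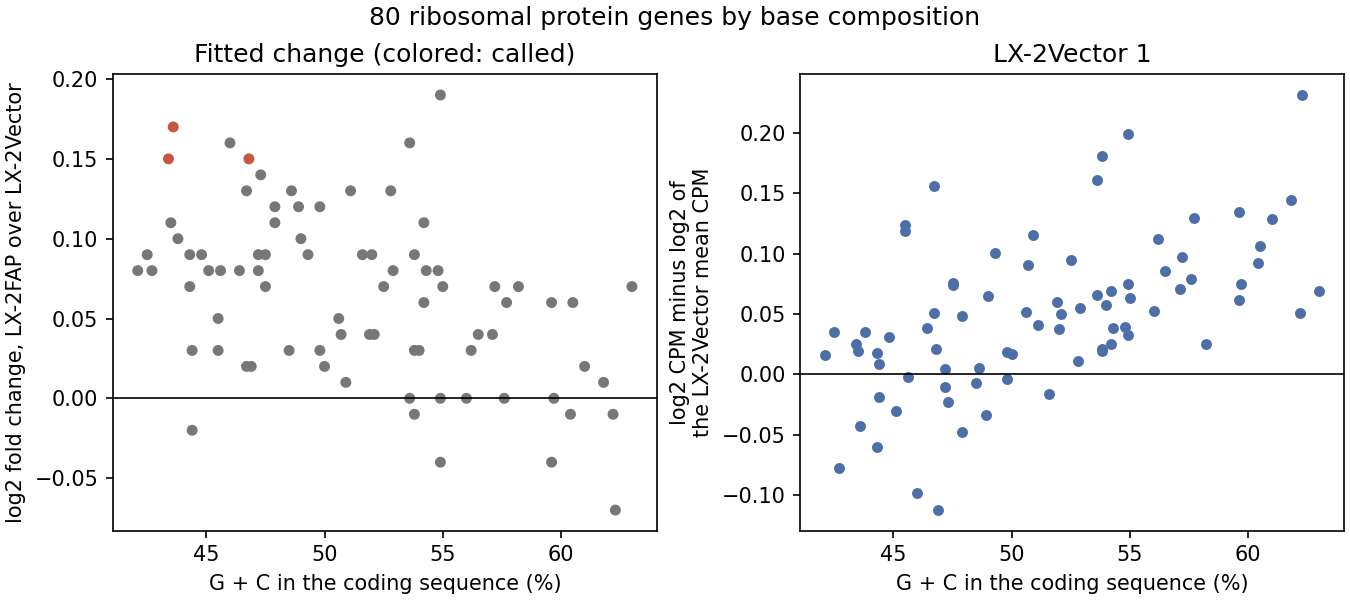
The 80 tested members by G + C content of the coding sequence (horizontal axes, percent), against the fitted log2 fold change (left, called members colored) and against the deviation of LX-2Vector 1 from the LX-2Vector mean (right, log2). The fitted change is lower and the LX-2Vector 1 value higher at high G + C. Over the 80 genes the fitted change had a Spearman correlation of -0.47 with G + C. The correlation of 0.62 for LX-2Vector 1 was computed on its deviation from the mean of all 6 libraries, not on the deviation plotted.

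Other components of the cytosolic ribosome whose symbols lie outside the rule gave similar values. Of 6 such genes, among them FAU, RACK1, RPL22L1, RPL7L1 and RPL26L1, 5 lay above 0 with a median log2 fold change of 0.084, and none was called by edgeR, DESeq2 or limma-trend, with 1 higher and 0 lower at an unadjusted p under 0.05. RPL22L1, the paralog of RPL22, had the largest value, a log2 change of 0.34 (SE 0.19, adjusted p by edgeR = 0.299). Mitochondrial ribosomal protein genes, which serve translation in the mitochondrion, lay above 0 in 66 of 76 cases with a median of 0.099, and 6 were called higher and 0 lower by edgeR, with 1 lower at an unadjusted p under 0.05 and 0 called lower by DESeq2 or limma-trend. The 6 became 2 without LX-2Vector 3, 4 without LX-2Vector 1, 11 without LX-2FAP 1 and 0 without LX-2FAP 2 or LX-2FAP 3 by edgeR, 11 and 17 with the G + C and length trends removed, and 0 by limma-trend. Of all tested genes edgeR called 2.57% higher in the main fit, and 3.40% and 7.31% with the G + C and length trends removed.

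Other mRNAs known to start with a TOP tract, the translation factors and their like, were examined next. Of 14 such genes 13 were tested, 10 lay above 0 and the median log2 fold change was 0.032. None was called by edgeR, with 3 higher and 0 lower at an unadjusted p under 0.05, DESeq2 called EEF1B2 higher and limma-trend 0. EEF1B2, a subunit of the exchange factor for elongation factor 1, reached 222.2 ± 1.63 CPM for LX-2FAP against 202.9 ± 8.1 for LX-2Vector (mean ± SD, n = 3 each), with an adjusted p of 0.0717 by edgeR and a log2 change of 0.13, and EIF3E and EEF1A1 had log2 changes of 0.11 and 0.10 that did not pass. EEF1G, a further subunit of that factor, is listed with 0 counts in every library. Whether this reflects its level or how its reads were counted was not tested.

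A further list held proteins that escort single ribosomal proteins to the nucleus. Of 7 genes, BCCIP, which accompanies RPL23, was called. It was measured at 66.4, 68.4 and 66.8 CPM in LX-2Vector 1 to 3 and at 74.6, 82.5 and 78.5 CPM in LX-2FAP 1 to 3, with no overlap, and rose by a log2 change of 0.22 (SE 0.05, adjusted p by edgeR = 0.0193). PDCD2L and GRWD1 followed with log2 changes of -0.15 and 0.11, and neither passed. BCCIP was not called without LX-2Vector 1, LX-2FAP 2 or LX-2FAP 3 (edgeR adjusted p 0.054, 0.106 and 0.121).

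In the list of mTORC1 and LARP1 genes, which control translation of TOP mRNAs, 7 of 14 lay above 0 and LARP4 was called. LARP4, an RNA-binding protein that protects the poly(A) tails of mRNAs, rose to 220.0 ± 13.5 CPM, compared with 194.3 ± 8.64 CPM for LX-2Vector (mean ± SD, n = 3 each, log2 change of 0.18, SE 0.05, adjusted p by edgeR = 0.0474). LARP4 was not called when any library other than LX-2FAP 1 was left out, with edgeR adjusted p from 0.051 to 0.259. The call was also lost with the G + C trend removed (log2 change of 0.12, adjusted p by edgeR = 0.185), with library size alone (0.0819) and with the replicate number as a block (0.0526). TSC2 and RPS6KB2 had the most negative log2 changes, -0.18 and -0.16, and did not pass (adjusted p by edgeR = 0.188 and 0.124). MTOR and LARP1 had log2 fold changes of 0.00 and 0.06 (SE 0.05 and 0.04, edgeR adjusted p = 0.996 and 0.424).

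In the list on the 5S particle and MDM2, edgeR called 3 of 11 genes, against 5.29% of all tested genes. Among those reported here, BRIX1 was called higher and BBC3 lower. BRIX1, an assembly factor of the 60S subunit, was measured at 96.5, 105.8 and 105.0 CPM in LX-2Vector 1 to 3 and at 112.4, 122.8 and 124.3 CPM in LX-2FAP 1 to 3, and rose by a log2 change of 0.23 (SE 0.05, adjusted p by edgeR = 0.0215). The groups did not overlap.

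BBC3, which promotes apoptosis, was measured at 3.10, 3.31 and 3.62 CPM in LX-2Vector 1 to 3 and at 2.13, 2.33 and 2.05 CPM in LX-2FAP 1 to 3, and fell by 0.62 on the log2 scale (SE 0.15, edgeR adjusted p = 0.0316). Of the fits that leave out 1 library it was called without LX-2FAP 1 alone, and the others left adjusted p values from 0.0583 to 0.165 by edgeR. With the G + C trend removed BBC3 had a log2 change of -0.41 and was not called (adjusted p by edgeR = 0.153), and DESeq2 gave it no adjusted p. BRIX1 was not called without LX-2Vector 1, LX-2FAP 2 or LX-2FAP 3 (edgeR adjusted p 0.073, 0.0965 and 0.156). MDM2 and CDKN1A, an inhibitor of cyclin-dependent kinases, had log2 fold changes of -0.06 and -0.04 (SE 0.04 and 0.06) and did not pass the test.

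The copies of ribosomal protein genes were compared last. The table listed 1283 ribosomal protein pseudogenes, of which 135 passed the filter, and together the pseudogenes took 0.110% to 0.117% of the counts of a library, against 2.20% to 2.35% for the members. Of the 135, 88 lay above 0 with a median log2 fold change of 0.055. RPL7AP6, a copy of RPL7A, was called lower by edgeR. It was measured at 30.2, 22.0 and 35.9 CPM in LX-2Vector 1 to 3 and at 21.8, 21.0 and 18.6 CPM in LX-2FAP 1 to 3, and fell by 0.53 on the log2 scale (SE 0.12, edgeR adjusted p = 0.0255, DESeq2 adjusted p = 0.112). This call was lost when LX-2Vector 1, LX-2Vector 3, LX-2FAP 2 or LX-2FAP 3 was left out, and with the G + C trend removed (adjusted p by edgeR = 0.0504). RPL7A itself, a 60S protein, was measured at 518.5, 512.0 and 502.9 CPM and at 546.4, 542.3 and 539.2 CPM (log2 fold change 0.09, edgeR adjusted p = 0.166).

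Of the 80 tested members, 18 shared over 50% of their words of 100 bases with a pseudogene and 26 shared none. The median log2 fold change was 0.10 for the former, of which 15 lay above 0, and 0.045 for the latter, of which 21 lay above 0. Shared words had a Spearman correlation of 0.32 with the log2 fold change over 79 members, given as a description. The part of reads shared with copies in the fitted changes was not tested.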

How the data were processed

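RNA of 3 LX-2Vector and 3 LX-2FAP libraries was analysed, with groups and replicate numbers from the sample titles. The authors aligned paired-end reads with HISAT2 2.0.5 and counted reads per gene with featureCounts 1.5.0-p3, and the deposited counts are whole and not normalized. The deposited FPKM values were computed by the authors from gene length and count. The submitters' processing notes name the build hg18, while the identifiers are Ensembl ones, 58337 of 60605 of which are in GENCODE release 29 (GRCh38), used here for coordinates and overlaps. Annotation release, strand use and the treatment of multi-mapping reads are not given in the sources used here. Whether ribosomal RNA was depleted, as per the labels, or mRNA selected by poly(A), as in the methods, is not settled.

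Counts were tested with the edgeR 4.0.16 quasi-likelihood test (R 4.3.3) after TMM scaling and the default filter (minimum count 10, minimum total 15), with Benjamini-Hochberg adjustment over 18275 genes and a threshold of 0.05. All p-values are 2-sided. CPM are counts per TMM-scaled library, with factors from 0.9885 to 1.014. Alternatives were DESeq2 1.42.0, limma 3.58.1 on log2(FPKM + 1) and log2(FPKM + 0.1), other scalings and filters, a replicate block, trends on G + C or length removed (loess, span 0.5), an adjusted p threshold of 0.1 and each library left out. For the G + C trend, G + C was taken over each gene's longest transcript, not its coding sequence, and was known for 98.1% of tested genes. Checked on simulated counts for 17971 genes, the share of truly changed genes that edgeR found was 6% at a simulated fold of 1.1, 46% at 1.2 and 76% at 1.5, with 6.09% false calls.

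Members and gene lists were chosen with earlier results of these data known. Named are the called members, those with the 5 highest and 5 lowest levels and the 5 largest changes in each direction, paralogs ending in L, untested members, RPL5, RPL11, RPL23, RPS6 and RPS27A, and the called or most changed genes of each list. Some members and genes that this rule covers are not reported here. Members called by DESeq2 and RPL7A were named after their values were seen. No 2 libraries of a group were alike within sampling noise, with chi-square over its degrees of freedom from 2.02 to 4.99 over all tested genes. Over the members alone it ran from 2.96 to 9.92, and was highest for LX-2Vector 1 against LX-2Vector 2 (9.92) and LX-2Vector 3 (9.64). Words of 100 bases were compared between GENCODE transcripts, and start windows came from RefSeq, without a match for 17 members. Intervals cover the spread between libraries, and limits from a count of 0 cover counting error only.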

Additional observations from a re-analysis of the deposited data

How the results depend on the processing

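Members called by edgeR, 3 in the main analysis and all of them higher, numbered 8 by the DESeq2 Wald test, 6 with no filter on low counts, 18 with the gene length trend removed, 16 with the GC trend removed, 9 at an adjusted p threshold of 0.1, and 0 with library size alone or with limma-trend at either pseudocount. The number was the same when counted as called higher, since no member was called lower in any of the alternatives. With 1 library left out the number ran from 0 (when either LX-2FAP 2, LX-2FAP 3 or LX-2Vector 3 was the one left out) to 10 (without LX-2FAP 1). The share of members called was 3.75% in the main analysis, against 5.29% of all genes called in either direction. It was 10% against 5.59% by DESeq2 and 7.41% against 3.9% with no filter. With the length and GC trends removed it was 22.5% against 9.84% and 20% against 4.46%. It was near that of all genes at the threshold of 0.1 (11.2% against 10.9%) and without LX-2FAP 1 (12.5% against 10.4%). All genes called, 967, became 1606 with no filter, 1798 with the length trend removed, 2 with limma-trend and 26 to 1949 with 1 library left out. The members' median log2 fold change, 0.072, was 0.115 with the length trend and 0.116 with the GC trend removed, and lay above 0 in each alternative, from 0.043 to 0.116. Beside it the median of all genes, -0.013 in the main analysis, ran from -0.041 (library size alone) to 0.031 (length trend removed), and was 0.028 with the GC trend removed. The distance between the medians was 0.085 in the main analysis, and 0.084 and 0.088 with the length and GC trends removed. Pathway genes called, 5, numbered 8 with no filter, 10 and 8 with the length and GC trends removed, 8 at the threshold of 0.1, 0 with limma-trend and 0 to 8 with 1 library left out. The cause of these shifts was not tested. The summed share of counts was 2.78% higher in LX-2FAP than in LX-2Vector and 1.36% to 4.21% higher with 1 library left out.

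With the replicate number as a block (replicate block), 2 members were called, since RPL7 reached an adjusted p of 0.0518, LARP4 was not called (0.0526), and all genes called numbered 975. Same-numbered libraries did not deviate together (correlations -0.033, 0.039 and -0.008), so they share only a number. Depth limits RPS10, RPL17, RPL36A and RPL26 most, and RPL3L and RPL10L could not be tested.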
